A study of Mus musculus with 32 samples.

Results

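Trp53, which encodes the transcription factor p53, and 9 genes known as its targets were followed through differentiation of mouse embryonic stem cells under bisphenol exposure. The genes were Trp53, Mdm2, Cdkn1a, Bbc3, Pmaip1, Bax, Eda2r, Ccng1, Zmat3 and Sesn2. They were chosen by name for their place in the p53 response and in apoptosis, with earlier results of these data known. These 10 of the 20612 genes listed in any library all had counts in 32 of 32 libraries, and all 10 were among the 15632 genes tested.

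The cells were J1 embryonic stem cells (ESCs), an established line of strain 129S4/SvJae, treated with 1 of 3 bisphenols at 100 nM, namely A (BPA), F (BPF) and S (BPS), or with the solvent dimethyl sulfoxide (DMSO) alone. All 3 compounds hold phenol rings and differ in the bridge between them, an isopropylidene group in BPA, a methylene group in BPF and a sulfonyl group in BPS. Libraries came from ESCs at day 0, from embryoid bodies (EBs, aggregates in which ESCs differentiate) at days 4, 6, 9, 12 and 20, from EBs of day 8 that had spent 4 days in retinoic acid (RA EBs), and from neural progenitor cultures (NPCs) of day 10. Each of the 8 stages had 4 libraries, 1 per treatment, so that a stage was described over its treatments and no treatment was repeated within a stage. The p-values therefore measure the spread between these samples, and nothing in the labels ties them to separate cultures.

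Total expected counts (reads assigned to genes by a model, so that they need not be whole) ran from 9574833 to 11070149 per library. The summed level of 8 pluripotency markers was 2760 ± 53.8 FPKM in ESCs and 69.8 ± 9.53 in NPCs, where FPKM are fragments per kilobase of transcript, scaled to library depth, and errors are the SD of a stage's 4 libraries. In the NPC libraries 8 neuron markers summed to 2363 ± 88.8 FPKM and 6 neural progenitor markers to 460.1 ± 30.2. From day 9 the EB libraries of the DMSO series stood apart in markers of other cell types, with a mesenchyme sum of 29.4 FPKM at day 12 against 437 to 459 in the bisphenol libraries. Those values are given beside the comparisons of treatments.

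p53 is kept scarce in unstressed cells because Mdm2, itself a p53 target, marks the protein for destruction. Damage or other stress releases it, and it then switches on genes that halt the cell cycle, repair the cell or open the mitochondrial route to apoptosis. In embryonic stem cells p53 is known to be abundant and to take part in leaving the pluripotent state, and RNA levels do not report how much p53 protein is active.

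Promoters of these genes were searched for the letters that p53 reads, because the targets are defined by its binding. RefSeq windows of GRCm38.p6, from 250 bases before to 50 after each annotated start, were at hand for 8 of the 10 genes, in 11 windows. The 10-letter p53 consensus half-site was looked for on both strands without mismatch. It was found in 5 of 11 windows, which belonged to 5 genes, against 8.36% of all 32851 windows of this length. With at most 1 mismatch it was in 9 of 11 windows and 70.0% of all windows, and the core CATG alone was in 4 of 11 and 61.1%. The stretches around the exact matches are printed 5′ to 3′ on the strand of the gene, with the half-sites in capitals.
Cdkn1a: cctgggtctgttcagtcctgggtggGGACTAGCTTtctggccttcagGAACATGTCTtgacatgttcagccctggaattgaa
Ccng1: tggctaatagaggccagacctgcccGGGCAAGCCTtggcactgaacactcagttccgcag
Mdm2: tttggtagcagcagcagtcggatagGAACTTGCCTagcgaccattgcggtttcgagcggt
Bax: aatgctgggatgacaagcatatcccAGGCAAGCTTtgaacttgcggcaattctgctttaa
Trp53: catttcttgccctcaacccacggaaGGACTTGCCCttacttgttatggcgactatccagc
The Cdkn1a stretch (chr17:29090881-29090962, plus strand) holds 2 half-sites, the first beginning 73 bases before the start. The Ccng1 stretch (chr11:40755437-40755496) and the Mdm2 stretch (chr10:117710910-117710969) are on the minus strand, with the half-site 185 and 186 bases before the start. That of Bax (chr7:45467065-45467124, minus strand) begins 201 bases before the start and that of Trp53 (chr11:69580259-69580318, plus strand) 75 bases before it. The windows of Bbc3, Eda2r and Sesn2 held no exact half-site. A match of letters is a description of the window and no measure of binding.

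Stages were compared to find where in differentiation each gene changed. A gene was called at an adjusted p under 0.05 in edgeR's quasi-likelihood test and an absolute log2 change of 1 or more, and changes are given ± SE. From ESCs to EBs of day 4, 3 of 10 genes rose (Bbc3, Pmaip1 and Ccng1) and 0 fell, while 14.4% of all genes tested rose and 13.6% fell. From day 4 to day 6 only Pmaip1 was called, as lower (10.8% of all genes rose and 8.75% fell). From day 6 to day 9 only Cdkn1a was called, as higher (10.7% rose and 3.97% fell). From day 9 to day 12 0 genes were called (9.99% of all genes in either direction), with 3 at an unadjusted p under 0.05 (48.6% of all genes) and 0 by DESeq2, and 1 was called without the BPF library of day 9 or the DMSO library of day 12. From day 12 to day 20 Eda2r and Zmat3 fell (17.6% rose and 8.78% fell). In the neural series Trp53, Bbc3 and Pmaip1 fell from EBs of day 4 to RA EBs (19% rose and 15.7% fell), and Cdkn1a and Bbc3 rose from RA EBs to NPCs (18.1% rose and 17.4% fell). The median log2 change over the 10 genes was lowest from EB day 4 to RA EBs, at -0.82 against 0.03 over all genes tested, and highest from RA EBs to NPCs, at 0.58 against -0.01.

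**Figure D1:**
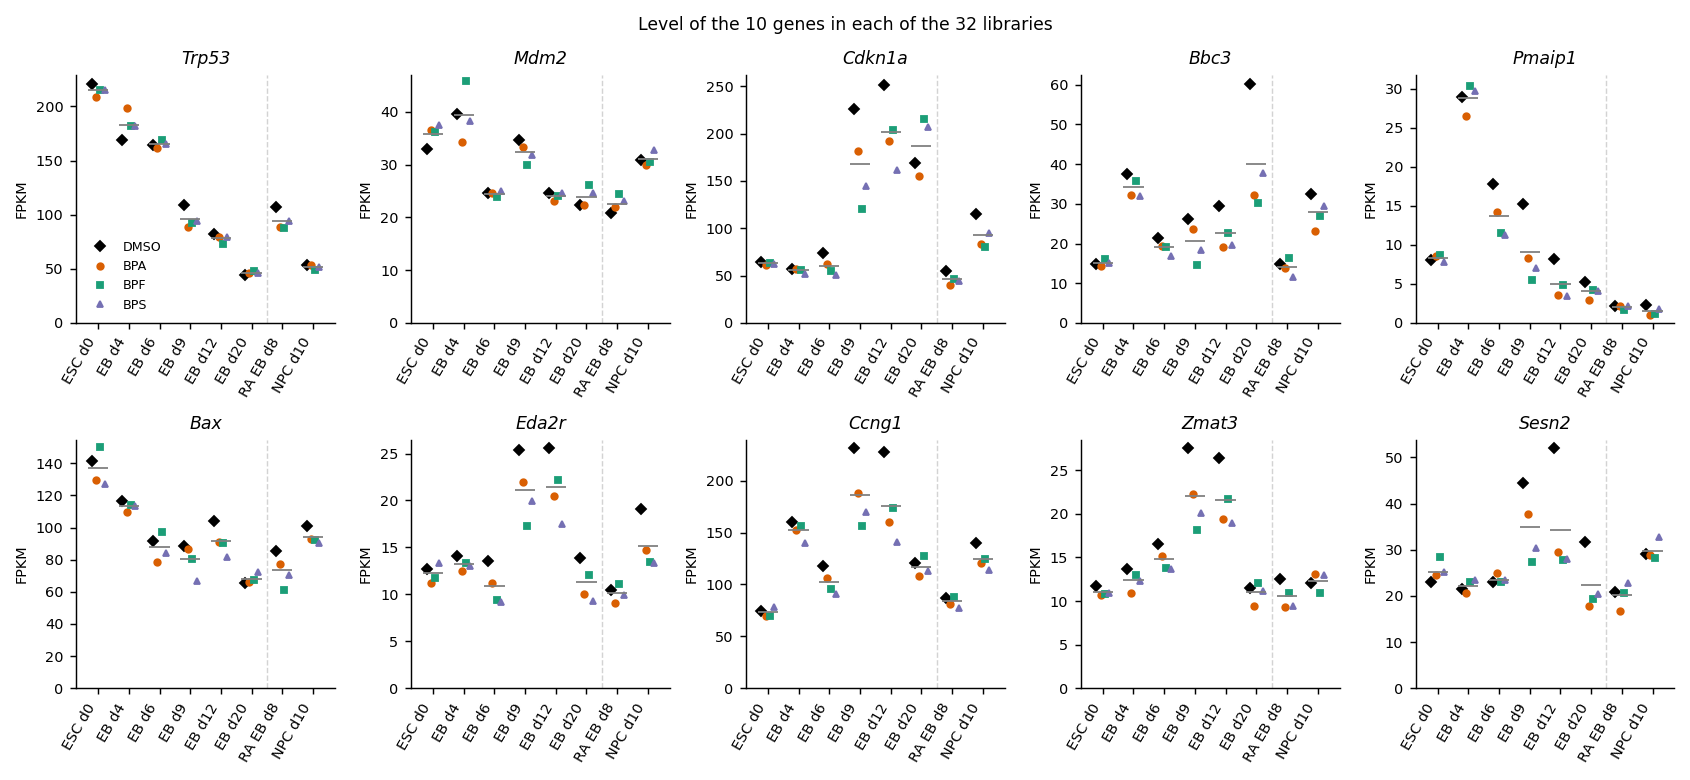
Level of each of the 10 genes in FPKM (y axis, linear from 0) in the 32 libraries, by stage (x axis) with the neural series to the right of the dashed line. Points are single libraries, coloured by treatment, and grey bars are stage means. Trp53 goes from 215 to 46.1 FPKM over the global series while Cdkn1a goes from 62.9 to 187, and the DMSO point is the highest of 4 for every gene at days 9 and 12.

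Trp53 (Entrez 22059, chromosome 11, 69580348 to 69591873) was most abundant in ESCs, at 221 FPKM in DMSO, 209 in BPA, 215 in BPF and 215 in BPS. By EB day 20 the same 4 treatments gave 44.5, 46.3, 47.8 and 45.9 FPKM. The stages formed a descending series of 215 ± 4.85, 183 ± 12.2, 165 ± 3.04, 96.2 ± 8.74, 78.6 ± 4.05 and 46.1 ± 1.36 FPKM from ESCs through EBs of increasing age. The ranges of neighbouring stages in this series did not overlap. In bulk RNA, fewer cells of a type and less RNA per cell cannot be told apart, here and in what follows. No single step of the global series reached a log2 change of 1, and the largest were -0.85 ± 0.06 from day 6 to day 9 and -0.88 ± 0.06 from day 12 to day 20. From day 4 into RA EBs Trp53 fell by 1.07 ± 0.06 on the log2 scale (adjusted p = 5.1e-15). RA EBs held 94.4 ± 8.72 FPKM, a range that overlapped that of EB day 9, and NPCs held 51.8 ± 2.16. The call in RA EBs was lost with library size alone and with limma on FPKM, where the smallest estimate was -0.95.

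Mdm2 (Entrez 17246, chromosome 10, 117688875 to 117710758), the ligase that holds p53 down, varied less than Trp53. Its stage means spanned 22.6 to 39.4 FPKM, a 1.75-fold range, against 4.66-fold for Trp53. It was highest at EB day 4, with 39.5 FPKM in DMSO, 34.2 in BPA, 45.8 in BPF and 38.2 in BPS, a range that overlapped ESCs at 35.8 ± 2.02. Mdm2 was not called in any step, and its largest change was -0.91 ± 0.07 from EB day 4 to RA EBs. EB days 6, 12 and 20 and RA EBs lay between 22.6 and 24.5 FPKM and their neighbours in this order overlapped. NPCs stood at 31.0 ± 1.20 FPKM, above all 4 of those stages.

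The ratio of Mdm2 to Trp53 in FPKM differed between stages. It was 0.167 ± 0.0122 in ESCs, 0.149 ± 0.00484 at EB day 6, 0.338 ± 0.0262 at day 9 and 0.516 ± 0.0293 at day 20. NPCs had the highest ratio, with 0.577 in DMSO, 0.561 in BPA, 0.625 in BPF and 0.636 in BPS. The 4 NPC libraries all lay above the 4 of EB day 20, which ranged from 0.483 to 0.546.

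**Figure D2:**
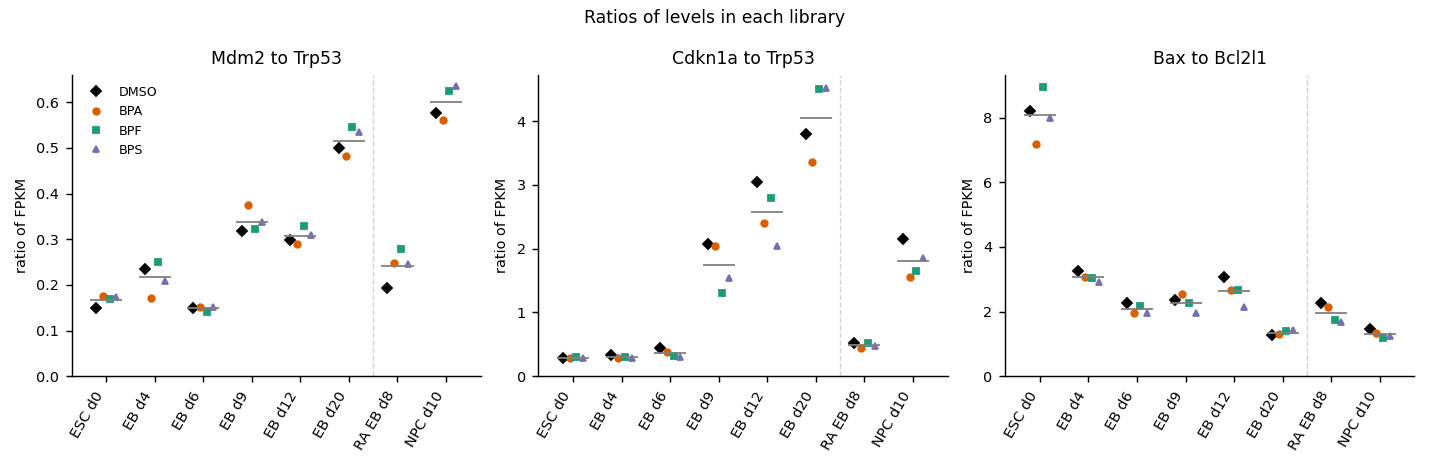
Ratios of FPKM (y axes, linear from 0) of Mdm2 to Trp53, Cdkn1a to Trp53 and Bax to Bcl2l1 in each library, by stage (x axes). Points are libraries coloured by treatment and grey bars are stage means. In the global series no library has a Cdkn1a ratio above 0.448 up to EB day 6 or below 1.30 from day 9, and the Bax ratio is highest in ESCs at 8.09.

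Cdkn1a (Entrez 12575, chromosome 17, 29090979 to 29100722) encodes p21, the inhibitor of cyclin-dependent kinases through which p53 halts the cycle. It was at 62.9 ± 1.51 FPKM in ESCs, 55.6 ± 2.91 at EB day 4 and 60.2 ± 10.1 at day 6. At day 9 it reached 226 FPKM in DMSO, 182 in BPA, 121 in BPF and 145 in BPS, and all 4 values lay above every library of the earlier stages. This rise from day 6 was 1.41 ± 0.13 on the log2 scale (adjusted p = 1.4e-09) and was kept under all 21 alternatives. At day 12 the libraries held 252, 192, 203 and 162 FPKM in the same order, and at day 20 they held 169, 156, 215 and 207. Days 9, 12 and 20 overlapped. RA EBs had the lowest stage mean, with 55.2 FPKM in DMSO, 39.7 in BPA, 45.9 in BPF and 44.5 in BPS. NPCs were at 93.4 ± 15.7, a rise of 1.08 ± 0.13 from RA EBs (adjusted p = 3.9e-08) that was lost in 4 of 21 alternatives, among them without the BPA library of the RA EBs and without the BPS library of the NPCs. Per unit of Trp53 RNA, Cdkn1a went from 0.292 ± 0.00248 in ESCs to 4.05 ± 0.564 at EB day 20 and 1.80 ± 0.265 in NPCs.

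Other CDK inhibitors were read beside Cdkn1a, since it is one of several brakes on the cycle. Of 6 such genes, 3 rose and 0 fell from EB day 4 to RA EBs, where Cdkn1a was not called. At this step 19% of all genes rose and 15.7% fell. Cdkn1c, which encodes p57, stood at 2.32 ± 0.291 FPKM before and 96.45 ± 11.9 after, a rise of 5.26 ± 0.13 on the log2 scale (adjusted p = 9.3e-23). Cdkn2c, which encodes p18, rose from 0.3725 ± 0.111 to 7.26 ± 0.856 FPKM. Cdkn2b, which encodes p15, rose from 5.42 ± 3.54 to 20.95 ± 9.83 FPKM between EB days 12 and 20. The sum of 16 cell cycle genes was 2082 ± 27.2 FPKM in ESCs, 1104 ± 84.9 at EB day 12, 304 ± 36.2 at day 20 and 343 ± 24.2 in NPCs. RA EBs, with the least Cdkn1a, had a cell cycle sum of 1669 ± 17.4 FPKM.

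Ccng1 (Entrez 12450, chromosome 11, 40748552 to 40755309) encodes cyclin G1, a p53 target that feeds back on Mdm2. In ESCs it stood at 74.8 FPKM in DMSO, 69.7 in BPA, 69.2 in BPF and 78.5 in BPS, and at EB day 4 at 161, 153, 156 and 139.8. The groups did not overlap, and the rise was 1.07 ± 0.09 (adjusted p = 4.3e-11), kept under 21 of 21 alternatives. Its highest stage means were 186 ± 32.8 FPKM at day 9 and 175 ± 37.4 at day 12. RA EBs held 83.6 ± 4.93, which is -0.97 ± 0.09 from EB day 4 and just short of the minimum change.

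Zmat3 (Entrez 22401, chromosome 3, 32334792 to 32365665) encodes an RNA-binding zinc finger protein and Sesn2 (Entrez 230784, chromosome 4, 132492804 to 132510456) a sestrin, which restrains mTORC1 under stress. Zmat3 stood at 11.05 ± 0.452 FPKM in ESCs and 14.8 ± 1.34 at EB day 6, then at 27.6 FPKM in DMSO, 22.2 in BPA, 18.2 in BPF and 20.1 in BPS at day 9. Days 9 and 12 overlapped and were apart from every other stage. From day 12 to day 20 Zmat3 fell by 1.07 ± 0.09 on the log2 scale (adjusted p = 4.1e-11), a call lost in 4 of 21 alternatives, namely library size alone, both limma fits on FPKM, and without the DMSO libraries. Sesn2 was not called in any step. Its stage means ran from 20.3 ± 2.54 FPKM in RA EBs to 35.0 ± 7.65 at EB day 9, and the ranges of all neighbouring stages in its order overlapped.

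Eda2r (Entrez 245527, chromosome X, 97333837 to 97377234) encodes the receptor for ectodysplasin A2, a member of the tumour necrosis factor receptor family. It peaked with Zmat3, at 25.4 FPKM in DMSO, 22 in BPA, 17.2 in BPF and 19.95 in BPS at day 9 and at 21.45 ± 3.40 at day 12. From day 12 to day 20 it fell by 1.03 ± 0.11 on the log2 scale to 11.3 ± 2.05 FPKM (adjusted p = 1.8e-09). That call was lost in 8 of 21 alternatives, among them DESeq2, RLE or upper quartile scaling, and without the DMSO library of day 12 or the BPS library of day 20. Tnfrsf19, a receptor of the same family, rose by 5.18 ± 0.19 between EB days 4 and 6, when it reached 33.4 ± 7.54 FPKM (adjusted p = 4.9e-18), where Eda2r was not called.

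The deposited length of a gene, the mean length of its transcripts as weighted in each library, also moved with stage for Eda2r. It was 3740 bases in DMSO, 3769 in BPA, 3748 in BPF and 3726 in BPS in ESCs. The stage mean was 3938 ± 66.0 bases at EB day 9, 4092 ± 99.3 at day 20 and 4126 ± 55.2 in NPCs, and no NPC library overlapped ESCs. Eda2r overlaps the pseudogene Gm18111 over 674 bases and Zmat3 the long noncoding RNA 4930429B21Rik over 177, and whether strand was used in counting is not given in the sources used here. Bbc3, Pmaip1, Bax, Ccng1, Zmat3 and Sesn2 each had 1 constant length, so for them the measure cannot move.

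**Figure D3:**
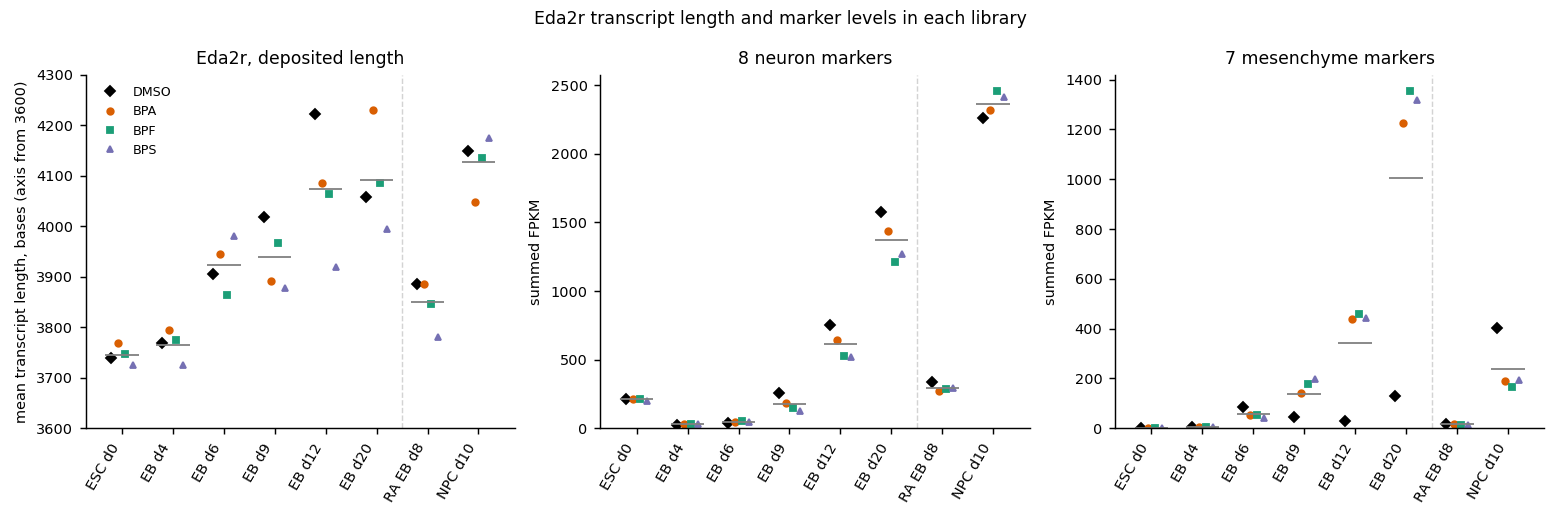
Deposited transcript length of Eda2r in bases (left, with a y axis that does not start at 0), summed FPKM of 8 neuron markers (middle) and of 7 mesenchyme markers (right) in each library, by stage (x axes). Points are libraries coloured by treatment and grey bars are stage means. Eda2r length goes from 3746 bases in ESCs to 4126 in NPCs, and the DMSO library is far below the others in mesenchyme markers at EB days 9, 12 and 20.

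Of the 3 killers among the 10 genes, Bbc3, Pmaip1 and Bax, Pmaip1 moved most between stages. Pmaip1 (Entrez 58801, chromosome 18, 66458604 to 66465558) encodes Noxa, a BH3-only protein that neutralises Mcl1. ESCs held 8.08 FPKM in DMSO, 8.55 in BPA, 8.66 in BPF and 7.85 in BPS, and EBs of day 4 held 28.9, 26.5, 30.4 and 29.7. The rise was 1.82 ± 0.19 on the log2 scale (adjusted p = 2.5e-09) with no overlap. By day 6 it had fallen by 1.16 ± 0.18 (adjusted p = 5.6e-06) to 13.7 ± 3.05 FPKM, and by day 20 it stood at 4.10 ± 0.955. RA EBs held 2.23, 2.14, 1.68 and 2.20 FPKM, which was 3.92 ± 0.22 below EB day 4 on the log2 scale (adjusted p = 4.4e-15), and NPCs held 1.55 ± 0.587. These 3 calls of Pmaip1 were kept under all alternatives run. Its stage means spanned 18.6-fold, the widest range of the 10 genes, and the lowest library rested on 27 counts.

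Bbc3 (Entrez 170770, chromosome 7, 16308398 to 16318334) encodes Puma, the BH3-only protein that binds every BCL-2 guardian. It went from 14.9 FPKM in DMSO, 14.2 in BPA, 15.99 in BPF and 15.2 in BPS in ESCs to 37.55, 32.1, 35.7 and 31.9 at EB day 4, a rise of 1.195 ± 0.15 (adjusted p = 7e-08). Days 6, 9 and 12 lay at 19.2 to 22.7 FPKM with overlapping ranges. The highest stage mean, EB day 20 at 40.1 ± 13.7, was raised by its DMSO library at 60.1 FPKM, since the others held 32.1, 30.3 and 37.9. Over the bisphenol libraries alone the mean was 33.45 ± 3.94 FPKM at EB day 20 and 33.26 ± 2.14 at EB day 4. In RA EBs Bbc3 fell by 1.38 ± 0.15 from EB day 4 on the log2 scale (adjusted p = 4.2e-09) and it rose by 1.05 ± 0.15 into NPCs (adjusted p = 5e-07). The last of these calls was lost in 9 of 21 alternatives, among them without the DMSO or the BPS library of the RA EBs and without the BPS library of the NPCs.

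Bax (Entrez 12028, chromosome 7, 45461695 to 45466903), whose protein forms pores in the mitochondrial outer membrane, was not called in any step. It was highest in ESCs, at 141 FPKM in DMSO, 129 in BPA, 150.1 in BPF and 127 in BPS, and next at EB day 4, at 113 ± 2.68, with no overlap. All other stages lay between 67.9 ± 3.13 and 94.0 ± 4.75 FPKM, and neighbours in that order overlapped.

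The guardians hold these killers back. Of the 4 anti-apoptotic genes tested 2 rose and 0 fell from ESCs to EB day 4 (14.4% of all genes rose and 13.6% fell). Mcl1 and Bcl2l2 changed there by -0.52 ± 0.05 and -0.68 ± 0.14 (edgeR, adjusted p = 2.9e-09 and 0.00012), short of the minimum change. Bcl2 was at 0.05 ± 0.0548 FPKM in ESCs and stood at 1.11 ± 0.101 at EB day 4 (adjusted p = 1e-15). Bcl2l1, which encodes Bcl-xL, rose by 1.17 ± 0.06 from 17.0 ± 0.861 to 36.9 ± 1.47 FPKM (adjusted p = 5e-16). Bax per unit of Bcl2l1 was 8.09 ± 0.722 in ESCs, 3.08 ± 0.137 at EB day 4, 2.64 ± 0.374 at day 12 and 1.31 ± 0.117 in NPCs. The sum of Bbc3, Pmaip1 and Bax over the sum of Bcl2 and Bcl2l1 was 9.44 ± 0.797 in ESCs and 1.67 ± 0.165 in NPCs. This ratio leaves out Mcl1 and Bcl2l2, and its size depends on which guardians are counted. With them, the 5 listed guardians summed to 135.5 ± 1.86 FPKM in ESCs and 140.9 ± 5.4 in NPCs. Among 8 further killers, Bcl2l11, which encodes Bim, rose from 4.375 ± 0.149 to 15.4 ± 0.634 FPKM at EB day 4, Hrk, which encodes Harakiri, from 1.55 ± 0.591 to 12.15 ± 2.02 between days 12 and 20, and Bik fell from 1.565 ± 0.445 to 0.19 ± 0.162 between RA EBs and NPCs. In all, 2 of the 8 rose and 1 fell at the first of these steps, 1 rose and 2 fell at the second, and 1 rose and 2 fell at the third. Of all genes tested 14.4%, 17.6% and 18.1% rose at these steps and 13.6%, 8.78% and 17.4% fell.

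Wider lists of the pathway were counted in the same way. Among 30 further genes commonly listed as p53 targets, 6 rose and 6 fell from ESCs to EB day 4 (median log2 change 0.21 against 0.001 over all genes tested). From EB day 4 to RA EBs 1 rose and 8 fell (median -0.46 against 0.03), and the one that rose was Plk3, a kinase, from 2.46 ± 0.533 to 53.5 ± 6.48 FPKM. From EB day 12 to day 20 3 rose and 6 fell (median -0.33 against -0.002), with Ephx1, an epoxide hydrolase, higher by 3.11 ± 0.18. Dglucy, a mitochondrial D-glutamate cyclase, fell from 10.2 ± 0.53 to 0.668 ± 0.276 FPKM at the first step. At these steps, in the order given, 14.4%, 19% and 17.6% of all genes rose and 13.6%, 15.7% and 8.78% fell.

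Among 18 genes that regulate or resemble p53, 0 rose and 3 fell from ESCs to EB day 4, 1 rose and 2 fell from EB day 4 to RA EBs, and 1 rose and 6 fell from RA EBs to NPCs. Of all genes tested 14.4%, 19% and 18.1% rose at these steps and 13.6%, 15.7% and 17.4% fell. Chek1, a checkpoint kinase that acts on p53, fell by 2.55 ± 0.08 on the log2 scale in the last of these, between 23.8 ± 0.843 and 3.88 ± 0.682 FPKM (adjusted p = 7.8e-20). The paralogue Trp73 went from 3.795 ± 0.0968 to 0.653 ± 0.0435 FPKM between EB day 4 and RA EBs. Trp63 went from 0.115 ± 0.048 to 1.225 ± 0.633 between EB days 6 and 9. Of 12 paralogues of the 10 genes, which include both of these, 4 rose and 4 fell from ESCs to EB day 4.

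Of 14 genes of the apoptosome, the caspases and their inhibitors, 0 rose and 3 fell from RA EBs to NPCs. At this step 18.1% of all genes rose and 17.4% fell. Birc5, which encodes survivin and is made by dividing cells, fell from 87.9 ± 4.43 to 16.2 ± 3.22 FPKM and Casp8 from 3.16 ± 0.218 to 0.828 ± 0.297. From EB day 4 to RA EBs 1 of the 14 rose and 2 fell, among them Birc3, from 1.65 ± 0.2 to 0.328 ± 0.12 FPKM. Of all genes tested 19% rose and 15.7% fell between these stages. Of 12 genes of the integrated stress response, a pathway that also controls Sesn2, 0 rose and 9 fell from ESCs to EB day 4 (median log2 change -1.79). At that step 14.4% of all genes rose and 13.6% fell. Chac1 fell there from 22.9 ± 1.88 to 1.22 ± 0.324 FPKM, Trib3 from 31.5 ± 1.73 to 3.575 ± 0.385 and Ddit3, which encodes CHOP, from 36.4 ± 2.88 to 4.395 ± 1.24. Sesn2 was 25.3 ± 2.24 FPKM in ESCs and 22.1 ± 1.25 at EB day 4.

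The branches were set side by side at like ages, except for NPCs of day 10 against EBs of day 20. In that comparison branch and age cannot be told apart. RA EBs against the mean of EB days 6 and 9 had 0 of 10 genes higher and 2 lower, Cdkn1a by -1.14 ± 0.12 (adjusted p = 6.2e-09) and Pmaip1 by -2.42 ± 0.20 (adjusted p = 7.3e-11), where 8.62% of all genes were higher and 10.3% lower. The other 8 genes were also below 0 in this comparison, from -0.22 ± 0.07 for Bax to -0.80 ± 0.08 for Zmat3. NPCs against the mean of EB days 9 and 12 had 1 gene lower, Pmaip1 by -1.99 ± 0.22 (adjusted p = 3.4e-09), where 16.4% of all genes were higher and 22.4% lower. NPCs against EB day 20 had 1 gene lower, again Pmaip1, by -1.19 ± 0.25 (adjusted p = 0.00011), where 10% were higher and 23.9% lower. Both Pmaip1 calls against NPCs were kept under all alternatives run.

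Bisphenols and DMSO were compared to find whether exposure altered these genes. At each stage the 3 bisphenol libraries were set against the 1 DMSO library, with an adjusted p under 0.05 as the rule and the lone library assumed to vary like the others. At EB day 9, 6 of 10 genes were called lower under bisphenols and 0 higher (3.48% of all genes lower and 4.01% higher). At day 12, 7 of 10 were called lower and 0 higher (8.79% lower and 10.1% higher). At day 20, 3 of 10 were called lower and 0 higher (10.5% lower and 9.14% higher), and the direction was mixed. With RLE, upper quartile or no scaling, 10 of 10 estimates were below 0 at days 9 and 12 and 6 of 10 at day 20. At day 20 DMSO was the lowest library for Trp53, Mdm2 and Bax. Over the 10 genes the median log2 difference was -0.46 at day 9 and -0.47 at day 12, against 0.004 and -0.05 over all genes tested. In ESCs, at EB days 4 and 6, in RA EBs and in NPCs 0 of 10 were called (0%, 0.563%, 2.55%, 2.34% and 2.25% of all genes called in either direction). At an unadjusted p under 0.05 these 5 stages had 0, 0, 4, 2 and 3 of the 10 genes and 1.64%, 8.6%, 12.3%, 16.5% and 12.6% of all genes. DESeq2 called 0 in each, and limma on log2(FPKM + 1) called Trp53 in RA EBs. Each of these comparisons rests on 1 DMSO library, so what is common to that library and what is common to the solvent cannot be told apart. Because the 10 genes were chosen with earlier results of these data known, their counts beside all genes are a description.

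**Figure D4:**
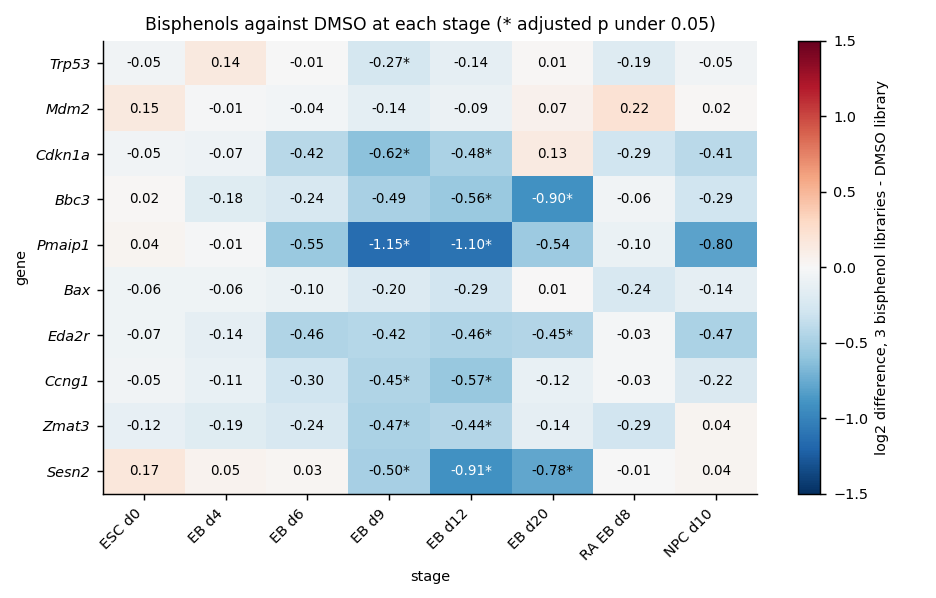
Log2 difference of the 3 bisphenol libraries from the DMSO library for each gene (rows) at each stage (columns), from edgeR's model of stage by class, with blue for lower under bisphenols. A star marks an adjusted p under 0.05. The stars fall at EB days 9, 12 and 20 only, and the lowest value is -1.15 for Pmaip1 at day 9.

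Among the 10 genes Pmaip1 showed the widest difference at days 9 and 12. At day 9 it stood at 15.2 FPKM in DMSO against 8.29 in BPA, 5.54 in BPF and 7.08 in BPS, and at day 12 at 8.21 against 3.59, 4.8 and 3.41. The DMSO library was the highest at both days and the 3 bisphenol libraries lay together below it. The differences were -1.15 ± 0.19 (adjusted p = 0.00026) and -1.10 ± 0.22 (adjusted p = 0.00066), both kept in 11 of 11 alternatives. At day 20 the values were 5.22 against 2.89, 4.22 and 4.08 FPKM, which was not called.

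Ccng1 stood at 231 FPKM in DMSO at day 9 against 188, 156 and 169.5 in BPA, BPF and BPS, and at 228 against 159.9, 173 and 141 at day 12. The differences of -0.45 ± 0.11 (adjusted p = 0.011) and -0.57 ± 0.11 (adjusted p = 0.00066) were both kept in 11 of 11 alternatives. By day 20 the DMSO library, at 121 FPKM, lay inside the range of 108 to 127 of the others.

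Sesn2 stood at 44.4 FPKM in DMSO at day 9 against 37.9 in BPA, 27.5 in BPF and 30.4 in BPS, then at 52.0 against 29.6, 27.8 and 28.0 at day 12 and at 31.7 against 17.9, 19.2 and 20.5 at day 20. At each of these days the DMSO library was the highest. The difference at day 9, -0.50 ± 0.14 (adjusted p = 0.025), was lost in 3 of 11 alternatives, including without the BPF or the BPS library. Those at day 12, -0.91 ± 0.14 (adjusted p = 2.6e-05), and day 20, -0.78 ± 0.15 (adjusted p = 0.00043), were kept in 11 of 11.

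Bbc3 was called at day 12, where DMSO held 29.4 FPKM against 19.0, 22.7 and 19.8 in BPA, BPF and BPS, and at day 20, where it held 60.1 against 32.1, 30.3 and 37.9. The first difference, -0.56 ± 0.18 (adjusted p = 0.029), was lost in 5 of 11 alternatives, and the second, -0.90 ± 0.17 (adjusted p = 0.00032), in 0. Of all genes tested 4.01%, 10.1% and 9.14% were higher at days 9, 12 and 20, and 3.48%, 8.79% and 10.5% lower. Of the 8 further killers 1 was higher and 0 lower at day 9, 2 higher and 1 lower at day 12, and 0 higher and 1 lower at day 20. The one that was lower on both occasions was Hrk, by -0.93 ± 0.22 (adjusted p = 0.0035) and -0.48 ± 0.17 (adjusted p = 0.045). Bmf, a BH3-only gene like Hrk, was higher by 0.66 ± 0.14 at day 9 (adjusted p = 0.0024) and by 0.78 ± 0.15 at day 12 (adjusted p = 0.00045), and Bad by 0.44 ± 0.14 at day 12 (adjusted p = 0.034). These 3 genes were named after their values were seen.

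Cdkn1a differed by -0.62 ± 0.16 at day 9 (adjusted p = 0.017) and by -0.48 ± 0.16 at day 12 (adjusted p = 0.041), with the levels given above. The first call was lost without the BPF library of that day, and the second in 8 of 11 alternatives, among them every other scaling and DESeq2. At day 20 DMSO, at 169 FPKM, lay between BPA at 156 and the others. Zmat3 differed by -0.47 ± 0.12 at day 9 (adjusted p = 0.01) and -0.44 ± 0.12 at day 12 (adjusted p = 0.009), where DMSO held 26.4 FPKM against 19.5, 21.7 and 19.0. Both calls were lost only with limma on log2(FPKM + 0.1).

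Eda2r was called at day 12, by -0.46 ± 0.14 (adjusted p = 0.019), with 25.6 FPKM in DMSO against 20.5, 22.2 and 17.5. At day 20 it was called by -0.45 ± 0.15 (adjusted p = 0.04), with 13.9 against 10.0, 12.1 and 9.34 FPKM, and this was lost in 8 of 11 alternatives. Trp53 itself was called at day 9 alone, by -0.27 ± 0.08 (adjusted p = 0.035), with 109 FPKM against 88.9, 92.8 and 94.1, a call lost without the BPA library. Mdm2 and Bax were called at no stage. At day 9 Mdm2 stood at 34.6 FPKM against 33.4, 29.9 and 31.7, so that its DMSO library too was the highest.

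The DMSO library had the highest FPKM of 4 for 10 of 10 genes at EB day 9 and for 10 of 10 at day 12, where 27.4% and 35.1% of all genes tested were highest in DMSO. At day 20 it was highest for 4 of 10 (35%), in NPCs for 6 of 10 (24.6%) and in RA EBs for 5 of 10 (37.5%). In ESCs it was highest for 3 of 10 (20.1%), at EB day 4 for 5 of 10 (26.8%) and at day 6 for 6 of 10 (26.7%).

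Markers of other cell types moved with these differences, and their part in the result was not tested. At day 9 the 8 neuron markers were all lower in each of the 3 bisphenol libraries, with sums of 126 to 184 FPKM against 254.5 in DMSO, and 6 of 6 neural progenitor markers were lower, with 194 to 237 against 325. At the same day 6 of 7 mesenchyme markers were higher in all 3, with 140.2 to 196 FPKM against 44.3. At day 12, 7 of 8 neuron markers were lower (523 to 645 FPKM against 751), 6 of 6 progenitor markers were lower (526 to 621 against 853) and 7 of 7 mesenchyme markers were higher (437 to 459 against 29.4). Cardiac markers, 7 of 7 higher at day 12, summed to 37.8 to 263 FPKM against 4.21, and endothelial markers, 6 of 6 higher, to 12.6 to 28.3 against 2.53. None of the markers in these lists was at 0 in all 4 libraries of either day.

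At day 20 mesenchyme markers summed to 1224 to 1353 FPKM under bisphenols against 131 in DMSO, with 6 of 7 higher, and neuron markers to 1213 to 1437 against 1579, with 7 of 8 lower. The 16 cell cycle genes were higher under all 3 bisphenols in 0 cases at day 12, where 14 were lower, and in 16 cases at day 20. Of 12 genes of the integrated stress response 3 were lower at day 12 and 7 at day 20 (8.79% and 10.5% of all genes). At either day 0 of the 12 were higher. At day 6 2 of them were higher, and in NPCs 1 was lower (2.55% and 2.25% of all genes in either direction). In NPCs, where none of the 10 genes was called, the mesenchyme markers went the other way, with 7 of 7 lower and 166.5 to 194 FPKM against 402.5.

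Further p53 targets were counted beside the 10. Of 30 such genes 0 were higher and 10 lower under bisphenols at EB day 9, 2 higher and 13 lower at day 12, and 2 higher and 5 lower at day 20, beside 3.48%, 8.79% and 10.5% of all genes lower at these days. At EB day 6 and in NPCs, where 0 of the 10 were called, 3 of the 30 were lower and 0 higher at each stage, beside 2.55% and 2.25% of all genes in either direction. Those of day 6 were Plk2, Phlda3 and Aen, and those of NPCs were Perp at -1.61 ± 0.26 (adjusted p = 0.00038), Tnfrsf10b, a death receptor, at -0.98 ± 0.13 (adjusted p = 3.4e-05) and Plk2. In ESCs, at EB day 4 and in RA EBs 0 of the 30 were called, with 0, 2 and 7 at an unadjusted p under 0.05. Examples singled out after their values were seen were Aen, an exonuclease, at -0.41 ± 0.10 (adjusted p = 0.0098) on day 9 and -0.49 ± 0.10 (adjusted p = 0.00091) on day 12, and Pidd1, which encodes the scaffold of the PIDDosome, at -1.18 ± 0.18 (adjusted p = 2.5e-05) on day 12. Perp, an epithelial desmosome gene as well as a p53 target, went the other way at 1.38 ± 0.28 (adjusted p = 0.00077) on day 12. Ckap2, Gtse1 and Psrc1, at -0.64 ± 0.08, -0.51 ± 0.12 and -0.63 ± 0.13 on day 12, are in this list and are also genes of dividing cells. The list's median log2 difference was -0.21 at day 9 and -0.23 at day 12.

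Regulators and effectors beside the targets were counted too, with genes named after their values were seen. Of the anti-apoptotic genes Bcl2 alone was called at any stage, as lower at day 9 by -0.515 ± 0.152 (edgeR, adjusted p = 0.035). At that day 3.48% of all genes were lower and 4.01% higher. Of all genes tested 10.1% were higher and 8.79% lower at day 12, and 9.14% were higher and 10.5% lower at day 20. Of the 18 regulators 2 were higher (Cdkn2a and Trp63) and 2 lower (Atm and Usp7) at day 12. At day 20 2 were higher (Cdkn2a and Aurka) and 4 lower (Mdm4, Ppm1d, Ep300 and Usp7), with Mdm4, a relative of Mdm2 that also restrains p53, at -0.41 ± 0.13 (adjusted p = 0.035). At EB day 4 Ep300 alone was called, as lower (0.563% of all genes in either direction), and 0 regulators were called at the other 5 stages. On day 9, 5 were at an unadjusted p under 0.05, for which the share of all genes was not counted. Of the 14 apoptosome and caspase genes 2 were higher (Casp8 and Birc3) and 0 lower at day 12, and 1 was higher and 1 lower at day 20. Of the 6 other CDK inhibitors 2 were higher and 0 lower at day 12, Cdkn2a by 1.72 ± 0.32 (adjusted p = 0.00036) and Cdkn2b by 3.23 ± 0.44 (adjusted p = 6.3e-06). At day 20 3 were higher (Cdkn2a, Cdkn2b and Cdkn2c) and 1 lower, Cdkn1b, which encodes p27, by -0.45 ± 0.09 (adjusted p = 0.00076).

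Over all 8 stages, in a model of stage plus treatment, 6 of 10 genes were lower under the 3 bisphenols as 1 class and 0 higher, where 1.69% of all genes tested were lower and 1.04% higher. Pmaip1 differed by -0.54 ± 0.12 (adjusted p = 0.011), Bbc3 by -0.36 ± 0.08 (adjusted p = 0.018), Eda2r by -0.32 ± 0.06 (adjusted p = 0.0044), Cdkn1a by -0.29 ± 0.08 (adjusted p = 0.035), and Ccng1 and Zmat3 by -0.24 ± 0.05 each (adjusted p = 0.011 for both). Trp53 at -0.07 ± 0.04, Mdm2 at 0.02 ± 0.04, Bax at -0.14 ± 0.05 and Sesn2 at -0.27 ± 0.09 were not called. The count depended on EB days 9 and 12, and so did that of all genes. Without the DMSO library of day 9 only Eda2r remained called, with 0.57% of all genes in either direction. Without the DMSO library of day 12 it was again Eda2r alone, with 0.435% of all genes. Over the 4 stages of the neural series 0 were called, where 0.155% of all genes were. With limma on log2 of FPKM plus 1 or plus 0.1, 0 were called, where 0.0192% and 0.0832% of all genes were. With so few genes called at all, these counts of 0 do not single out the 10 genes. Cdkn1a was lost in 13 of 50 alternatives and Bbc3 in 9, also without the DMSO library of day 20. Of the 30 further targets 6 were lower and 0 higher, with a median of -0.125 against -0.01 over all genes.

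The compounds were compared with each other at the same dose and stages. Against DMSO, BPS alone had genes called, Eda2r at -0.37 ± 0.08 (adjusted p = 0.013) and Ccng1 at -0.29 ± 0.06 (adjusted p = 0.023), where 0.621% of all genes were higher and 0.525% lower. BPA and BPF had 0 of 10 called (0.166% and 0.992% of all genes in either direction), with 8 of 10 at an unadjusted p under 0.05 for each, as were 10.3% and 14.1% of all genes. DESeq2 called 0 for BPA and 2 for BPF, both lower, where it called 0.109% of all genes higher and 0.467% lower. The estimates lay side by side: Pmaip1 was at -0.55 ± 0.15 under BPA, -0.55 ± 0.15 under BPF and -0.52 ± 0.15 under BPS, and Cdkn1a at -0.28 ± 0.09, -0.28 ± 0.09 and -0.30 ± 0.09. These 3 contrasts share their DMSO libraries. Both BPS calls were lost without the DMSO library of day 9 or of day 12, and over the 6 stages of the global series BPA, BPF and BPS had 1, 4 and 5 genes called, all lower. In that fit 0.66%, 3.53% and 3.62% of all genes were lower under BPA, BPF and BPS and 1.13%, 3.12% and 4% higher.

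**Figure D5:**
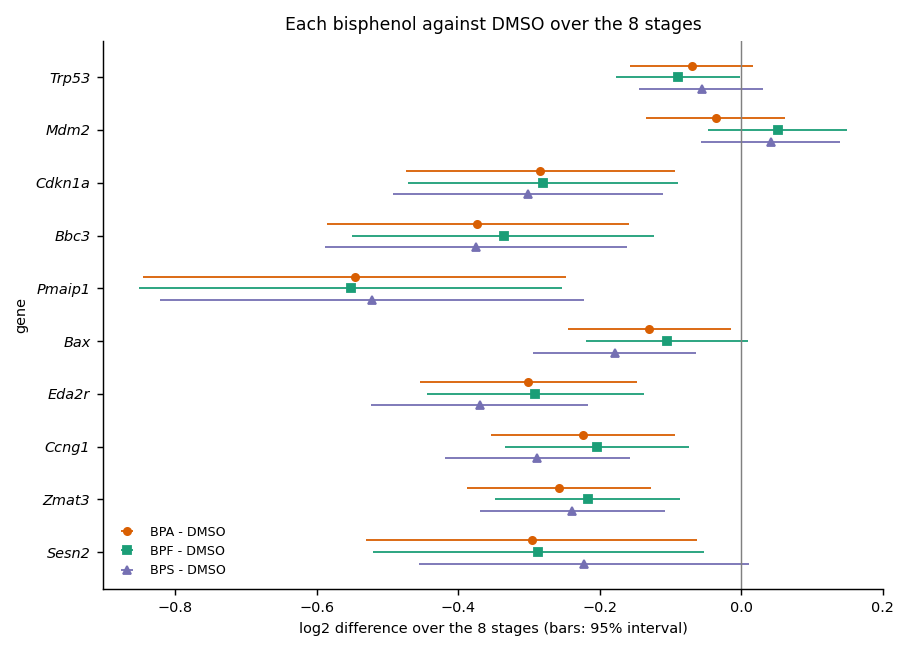
Log2 difference of BPA, BPF and BPS from DMSO over the 8 stages (x axis) for each gene (y axis), with bars for the 95% interval of each estimate, not adjusted for the number of genes. The 3 estimates of a gene lie close together, and those of Pmaip1 run from -0.55 to -0.52.

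The difference between compounds was tested directly in 3 pairs, which do not involve DMSO. In 0 of the 30 tests of a gene and pair was a compound called different from another (edgeR, adjusted p = 1 for each over all genes and the 3 pairs; 0%, 0.0064% and 0% of all genes called), 0 were at an unadjusted p under 0.05 (2.15%, 6.88% and 1.7% of all genes) and DESeq2 called 0. For Cdkn1a the 95% interval of BPA minus BPF was -0.19 to 0.19, of BPA minus BPS -0.17 to 0.21 and of BPF minus BPS -0.17 to 0.21. For Pmaip1, with the widest intervals, these were -0.30 to 0.31, -0.33 to 0.28 and -0.34 to 0.27. For Ccng1 they were -0.15 to 0.11, -0.07 to 0.20 and -0.05 to 0.22. Differences within these limits between bridges of the bisphenols were not detectable here, and the intervals do not show that the compounds act alike.

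The branches were then compared for their response. In the global branch (EB days 6 to 20) 7 of 10 genes were lower under bisphenols and 0 higher (10.6% of all genes lower and 9.77% higher), with Pmaip1 at -0.84 ± 0.14, Bbc3 at -0.56 ± 0.11 and Sesn2 at -0.56 ± 0.10 (adjusted p = 0.00018, 0.00093 and 0.00064). In the neural branch (RA EBs and NPCs) 0 were called (0.0199% of all genes in either direction), with 3 at an unadjusted p under 0.05 (10.1% of all genes) and 0 by DESeq2. The test of the difference itself called 0 of 10 (8.79% of all genes in either direction), with 1 at an unadjusted p under 0.05 (25.4% of all genes), so the genes were not shown to respond differently in the branches. Sesn2 came nearest, at -0.57 ± 0.19 (adjusted p = 0.059), and was called by DESeq2 and without the DMSO or BPA library of EB day 6, the BPA library of day 9 or the BPA library of the RA EBs. The call of Cdkn1a in the global branch was lost without the DMSO library of day 6, 9 or 12. For Cdkn1a the estimates were -0.36 ± 0.11 in the global and -0.36 ± 0.16 in the neural branch.

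The genes were last compared with each other and with all genes over the 32 libraries, as a description, by Pearson's r of log2(FPKM + 1). The libraries share stages, so that r includes the course of differentiation. Trp53 was followed most closely by Gart (0.99), Nop2 (0.988), Tnpo3 (0.984), Pelp1 (0.983) and Polr1b (0.983). Cdkn1a was followed by Ak1 (0.949), Nrn1 (0.903), Pcp4l1 (0.902), Klhdc8b (0.896) and Chn2 (0.895). For Mdm2 they were Fxr2 (0.857), Trp53inp1 (0.838), Trerf1 (0.807), Kdm5b (0.784) and Lmtk2 (0.781), and for Ccng1 Btg2 (0.883), Eda2r (0.81), Unk (0.802), Dact3 (0.8) and Spon1 (0.794). Trp53inp1 and Btg2 are among the further p53 targets. Among the genes followed here, Trp53 had its lowest r with Cdkn1a, at -0.61, and its highest with Pmaip1, at 0.73. Its r was 0.67 with Bax and 0.48 with Mdm2.

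With the mean of each stage removed, which leaves the differences between the 4 treatments, r differed between pairs of genes. Among Cdkn1a, Bbc3, Pmaip1, Eda2r, Ccng1, Zmat3 and Sesn2 it ran from 0.49 (Cdkn1a and Sesn2) to 0.85 (Eda2r and Ccng1), over 32 libraries. These are the genes called lower under bisphenols in the global branch, so a positive r among them follows in part from that choice. Bax had r of -0.12 (with Mdm2) to 0.5 (with Cdkn1a) with the other 9 genes. Trp53 had r of -0.17 (with Mdm2) to 0.45 (with Cdkn1a), and Mdm2 of -0.17 to 0.35. The points share the 1 DMSO library of each stage.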

How the data were processed

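RNA for 32 libraries was isolated by Trizol, cleaned on RNeasy Plus columns and sequenced at BGI, per the labels' protocols. Bowtie2, HISAT, RSEM and build mm10 are named in the submitters' processing notes, with no versions or roles. The authors deposited, per gene and library, an expected count (estimated reads), an FPKM value and a transcript length in bases. Genes under 0.01 FPKM are not listed and were set to 0.

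Expected counts were rounded and tested with edgeR 4.0.16 (quasi-likelihood, TMM factors of 0.923 to 1.143, R 4.3.3) over 15632 genes at 1 CPM in at least 4 libraries, with Benjamini-Hochberg adjustment over all of them. Stages, treatments and pairs of compounds came from 1 model of stage and treatment with 21 residual degrees of freedom. Single stages came from a model of stage by class (DMSO or bisphenol) with 16, and branches from the 24 libraries of the later stages (15084 genes). Some contrasts of the model of stage and treatment and of the model of stage by class were checked on simulated data. Single compounds, pairs of compounds and branches were not checked in this way. Alternatives were RLE, upper quartile and no scaling, filters of 0 and 5 CPM, DESeq2 1.42.0, limma 3.58.1 on log2 of the deposited FPKM plus 1 or 0.1, and leaving out libraries, treatments or stages. With 9574833 to 11070149 counts per library, precision at the low end is set by counts such as the 27 of Pmaip1, and FPKM also carries the length estimate.

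The 10 genes and all gene lists were chosen with earlier results of these data known. All 10 genes were tested and counted in every comparison, and in some comparisons values are printed for only a part of them. From each pathway list the 3 genes with the largest called change in a stage step, at 1 FPKM or more in either group, were named, and others are said to have been chosen after their values were seen. RefSeq (GRCm38.p6) gave positions and promoters; 20551 of 20612 genes matched by Entrez ID, as did 187 of 188 list genes.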

Additional observations from a re-analysis of the deposited data

Results flagged for a closer look

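Among the 80 groups of 4 libraries (10 genes at 8 stages), 2 held a library far from the others by Dixon's criterion, and chance alone would mark about 1 in 20. Sesn2 at EB day 12 was 52.04 FPKM in DMSO, with the next library at 29.56, a gap of 0.927 of the range. Pmaip1 in RA EBs was 1.68 FPKM in BPF, with the next library at 2.14, a gap of 0.836 of the range.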

How the results depend on the processing

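Of 47 called changes of single genes, tried under 1116 alternatives in all, 987 kept their call, 129 lost it and 0 reversed. Of 233 uncalled ones, 72 of 5384 alternatives gave a call. Without a minimum change, the genes called went from 3 to 5 (ESC to EB day 4), 1 to 7 (day 4 to 6), 1 to 9 (day 6 to 9), 0 to 3 (day 9 to 12), 2 to 7 (day 12 to 20), 3 to 9 (day 4 to RA EBs), 2 to 9 (RA EBs to NPCs), 2 to 10 (RA EBs against days 6 and 9), 1 to 9 (NPCs against days 9 and 12) and 1 to 9 (NPCs against day 20). The share of all genes passing without a minimum change was not counted, so these counts cannot be read against it. With the minimum change, the count from day 12 to 20 was 1 with RLE, upper quartile and DESeq2, and 0 with library size alone and both limma fits. From RA EBs to NPCs it was 0 with upper quartile and with limma at a pseudocount of 1, and 1 with library size alone and limma at 0.1. NPCs against days 9 and 12 gave 2 with upper quartile, and NPCs against day 20 gave 2 with library size alone and limma at 0.1. Over all stages, limma at either pseudocount and the 4 neural stages gave 0 for the bisphenols together (6 in the main model) and for BPS (2). For the bisphenols together limma at 1, limma at 0.1 and the neural stages called 0.0192%, 0.0832% and 0.155% of all genes. The 6 global stages gave 1 for BPA, 4 for BPF and 5 for BPS, and DESeq2 gave 2 for BPF. At EB day 12 limma at 1 and at 0.1 gave 4 and 3 (7 in the main model), where 17.3% and 14.6% of all genes were called. In RA EBs limma at 1 gave 1, and for the difference of branches DESeq2 gave 1. Where no share of all genes is given, these counts cannot be read against it. The cause of these differences was not tested.

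Leaving out libraries gave 0 to 1 genes from day 9 to 12, 1 to 2 from day 12 to 20 and 0 to 2 from RA EBs to NPCs. It gave 0 to 2 for BPA, 0 to 3 for BPF, 0 to 5 for BPS and 1 to 7 for the bisphenols together. At EB day 6 it gave 0 to 2, at EB day 12 4 to 7 and for the difference of branches 0 to 1. For the bisphenols together the share of all genes moved too. It was 0.238% without all libraries of day 12, with 1 of the 10 genes, and 8.3% without the DMSO library of the NPCs, with 7. At EB day 12 it was 14.8% without the BPS library, with 4 genes, and 15.2% without the BPF library, with 7. For the other counts of left-out libraries the share is not given, so they cannot be read against it. Other scalings moved the median log2 change of all genes by more than 0.1 for NPCs against EB day 20 (to -0.276 with library size alone), NPCs against days 9 and 12 (to -0.207 with upper quartile), RA EBs to NPCs (to -0.132 with upper quartile), and with library size alone day 4 to RA EBs (to 0.129) and day 12 to 20 (to 0.104). Tests of a single stage without its DMSO library were not run, since no comparison is then left. No paired analysis was possible because each stage and treatment has 1 library, so that no replicate number pairs samples, beyond the stage term of the main model, which already compares treatments within stages.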
